A study of Homo sapiens with 4 samples.

Results

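Mitochondrial protein import genes were taken as all rows of the deposited abundance table whose gene name begins with TIMM, TOMM, CHCHD, SAMM, PMPC, MTX or IMMP, and the values of their transcripts were summed per gene. This gave 39 genes with 110 transcripts, out of 11213 gene names and 32551 transcripts in the table. The RNA came from K562, an established cell line derived from chronic myeloid leukaemia that carries the BCR-ABL1 fusion. All libraries came from wild-type K562 transduced with lentivirus and selected with puromycin: 2 received a control hairpin (shControl) and 2 a hairpin against PHF8 (shPHF8), a histone demethylase, and the series asks what loss of PHF8 does to transcription in these cells. Whether shPHF8 libraries 1 and 2 are repeats of a single hairpin or carry different ones is not stated in the labels, and neither is whether cultures were separate. P-values therefore measure only the spread between these samples, which may be technical.

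Most mitochondrial proteins are encoded in the nucleus, made in the cytosol and imported unfolded. Precursors enter through the TOM complex of the outer membrane. From there the SAM complex inserts beta-barrel proteins into the outer membrane, small TIM chaperones ferry hydrophobic proteins to the TIM22 complex of the inner membrane, the TIM23 complex takes precursors with a cleavable presequence into the matrix, and MIA40 traps cysteine-rich proteins in the intermembrane space by oxidising them. Peptidases then remove the presequences. A name rule also takes in proteins with other jobs: TIMMDC1 is an assembly factor of respiratory complex I, TOMM34 is a cytosolic co-chaperone, CHCHD1 is a subunit of the mitochondrial ribosome, and CHCHD3 and CHCHD6 belong to the MICOS complex that shapes cristae.

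The small TIM genes and the CHCHD genes each share a spacing of cysteines, which the coding sequences of GENCODE release 29 show directly. CHCHD genes are named after a domain with such cysteine pairs, so their pattern is not independent of the name rule. The small TIM genes were grouped as a known family that shares its cysteine pairs, so their pattern is not independent of that grouping either. The counts below describe these families and test nothing. In-frame cysteine codons (TGC or TGT) with 3 codons between them, at least 2 such pairs, were found in 6 of 6 small TIM genes and in 0 of 8 CHCHD genes. Pairs with 9 codons between them, at least 2 per gene, were found in 8 of 8 CHCHD genes and in 0 of 6 small TIM genes. Neither twin pattern was found in any of the other 25 members. Among 2413 genes of the table with a coding sequence no longer than the longest of these members, 2.15% held the first pattern and 2.32% the second. The stretches from the first to the last cysteine codon of 4 small TIM genes, which carry precursors between the membranes, are printed with those codons in capitals.
TIMM9: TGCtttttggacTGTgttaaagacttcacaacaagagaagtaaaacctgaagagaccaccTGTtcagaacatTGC
TIMM10: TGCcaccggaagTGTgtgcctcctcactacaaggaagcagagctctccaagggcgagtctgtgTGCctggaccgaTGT
TIMM13: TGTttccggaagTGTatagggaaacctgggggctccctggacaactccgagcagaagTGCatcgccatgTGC
TIMM8A: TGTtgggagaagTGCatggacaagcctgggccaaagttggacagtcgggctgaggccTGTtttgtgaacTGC

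The wider spacing is shown for CHCHD4, which is MIA40 itself, and for the paralogues CHCHD3 and CHCHD6, whose RNA levels are described below. Capitals again mark the cysteine codons that pair across 9 others.
CHCHD4: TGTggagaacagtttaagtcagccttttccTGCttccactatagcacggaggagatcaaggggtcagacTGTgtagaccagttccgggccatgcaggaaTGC
CHCHD3: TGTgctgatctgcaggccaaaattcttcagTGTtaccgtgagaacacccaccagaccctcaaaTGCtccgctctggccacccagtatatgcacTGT
CHCHD6: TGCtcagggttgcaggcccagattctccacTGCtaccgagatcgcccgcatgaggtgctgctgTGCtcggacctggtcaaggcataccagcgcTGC

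Abundance was given in TPM, a share of all transcripts listed that is scaled for transcript length, so levels can be set side by side between genes. TPM keep no record of read number, and the depth behind each value is unknown. PHF8 itself was at 25.9 and 22.5 TPM under shControl and 6.06 and 6.42 TPM under shPHF8, or 25.8% of the control mean (limma Benjamini-Hochberg adjusted p = 0.0643), in the direction the labels give. In the same libraries 7 erythroid markers summed to between 7889 and 8279 TPM under shControl and between 12002 and 12522 TPM under shPHF8. The 5 granulocyte and monocyte markers with a row, of 11 in the list, summed to between 143 and 161 TPM under shControl and between 77.9 and 83.1 TPM under shPHF8. Of the lymphocyte markers 2 of 7 had a row, with sums of 30.4 to 34.4 and 10.98 to 15.6 TPM, and of the stromal and endothelial markers 2 of 6, with sums of 9.88 to 13.01 and 2.52 to 3.42 TPM. The part of these shifts in the values of the import genes was not tested, and in bulk RNA fewer cells of a type cannot be told apart from less RNA per cell.

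All 39 members were expressed and all passed the minimum of a mean of 1 TPM over the 4 libraries. Their mean levels ran from 14.02 TPM for CHCHD6 to 1225 TPM for CHCHD2, with a median of 96.96 TPM, and 7 of them stood among the 1000 most abundant genes. After CHCHD2, an intermembrane space protein, the most abundant members were the receptor TOMM20 and the small TOM subunit TOMM7, ranked 195 and 234 of all genes, against 93 for CHCHD2. The plot of levels by library shows that, in most members, the 4 libraries lay close together on the scale that separates the genes from each other.

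**Figure D1:**
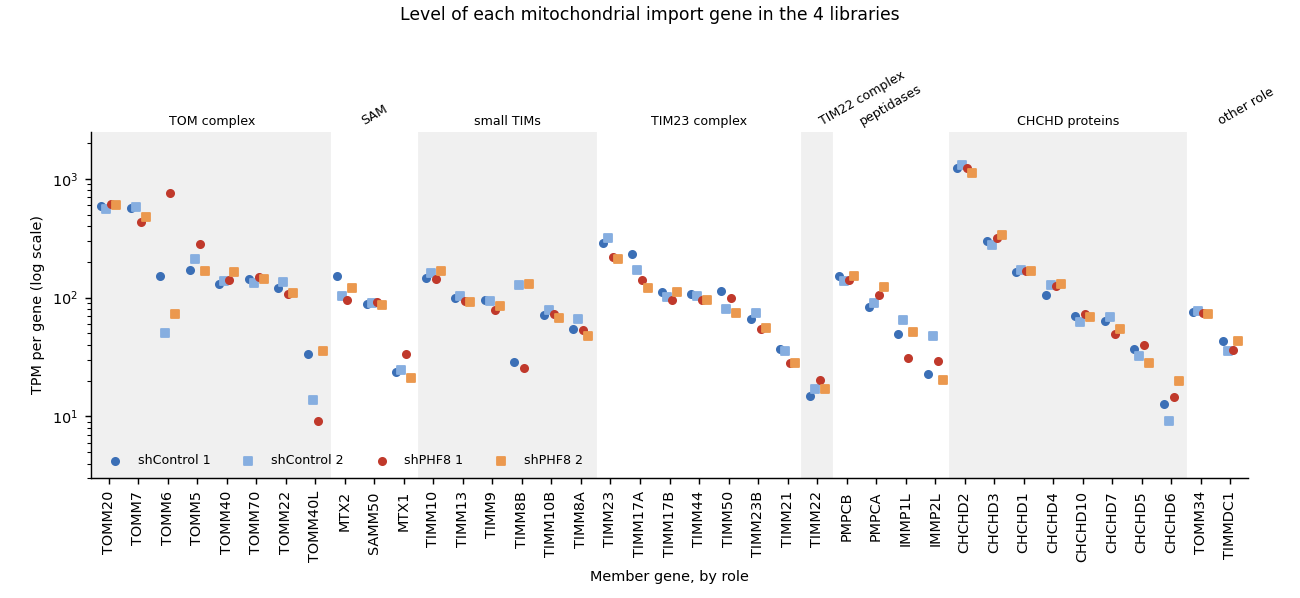
TPM of each of the 39 member genes (vertical axis, log scale) in the 2 shControl libraries (blue) and the 2 shPHF8 libraries (red and orange), 1 point per library, with genes grouped by role and ordered by mean level within a role. SAM is the sorting and assembly machinery and small TIMs are the small TIM chaperones. CHCHD2 is highest at 1130 to 1296 TPM, and TOMM6, TIMM8B and TOMM40L are the genes whose points lie farthest apart.

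The member genes did not move as a block after PHF8 knockdown. The 7 genes of the TIM23 complex all had lower values with every library in, and 5 of 7 did without shControl replicate 1. Differences were tested with limma on log2(TPM + 1), fitted over all 10972 genes tested. None of the 39 members passed with Benjamini-Hochberg adjustment, and 0% of all genes tested did. At an unadjusted limma p under 0.05, a weaker standard used here only to describe, 1 member was higher, against 9.9% of all genes, and 6 were lower, against 12.1% of all genes. The count of lower members fell with any 1 library left out, and so did the count over all genes. Both shPHF8 libraries lay above both controls in 7 members, against 26% of all genes, and below both controls in 13, against 29.3%, so that 19 members overlapped. The median log2 fold change of the members, shPHF8 minus shControl, was -0.047, beside -0.018 over all genes tested. In all, 17 members had a higher mean log2 value, against 48% of all genes, and 22 a lower one.

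The members together summed to 6043 and 6059 TPM under shControl and 6373 and 5695 TPM under shPHF8. The first shPHF8 library was the highest of the 4 and the second the lowest. A single gene, TOMM6, made up 765 TPM of the first shPHF8 library. Without TOMM6, an alternative added after its values were seen, the sums were 5892 and 6009 TPM under shControl and 5608 and 5622 TPM under shPHF8, and the groups no longer overlapped, with a log2 ratio of -0.084 in place of -0.0040.

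**Figure D2:**
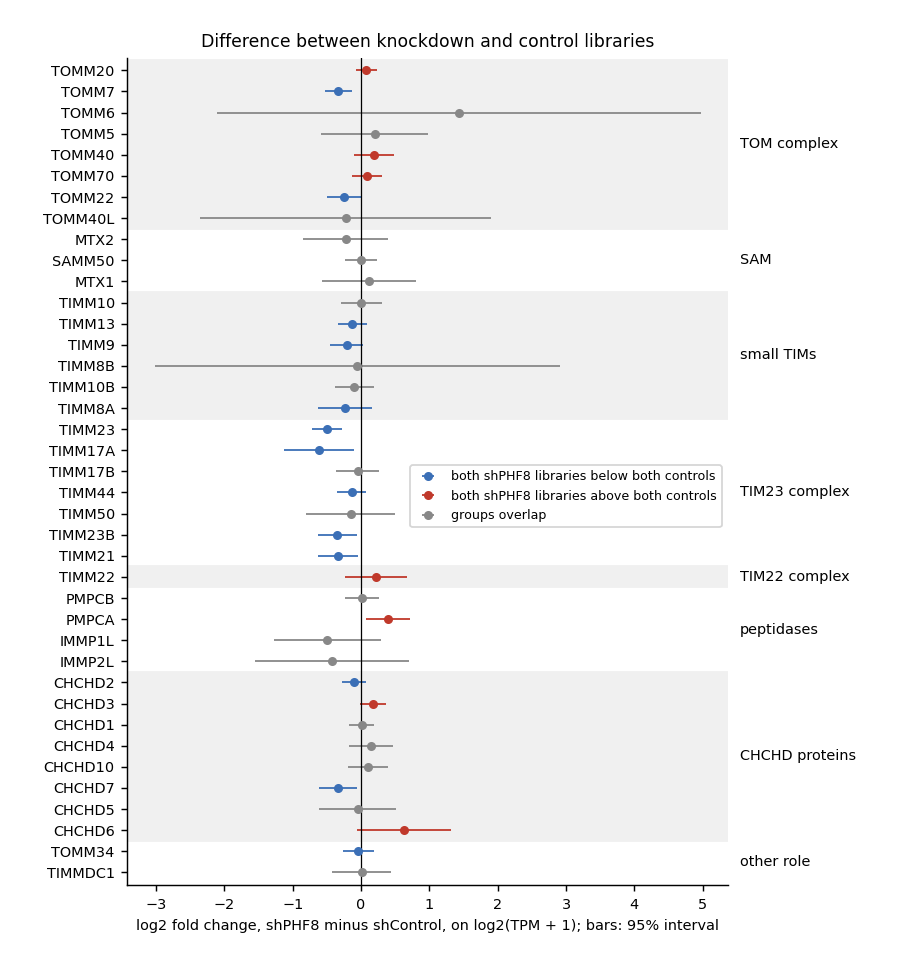
Log2 fold change of each member, as the shPHF8 mean less the shControl mean of log2(TPM + 1), with its 95% confidence interval from limma, by role. Blue marks genes with both shPHF8 libraries below both controls, red those with both above and grey those where the groups overlap. The 7 TIM23 complex genes all lie below 0, while TOMM6, TIMM8B and TOMM40L have the widest intervals.

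All 7 genes of the TIM23 complex had lower values under shPHF8, against 48% of all genes with a higher value, and 5 of them had both shPHF8 libraries below both controls, against 29.3% of all genes. The count of 7 with a lower value was 5 without shControl replicate 1 and with the highest transcript per gene, and 6 without either shPHF8 library. Their summed level was 957 and 881 TPM under shControl and 731 and 695 TPM under shPHF8, a log2 ratio of -0.37. The median log2 fold change of the 7 genes was -0.34, and 4 of the 7 were lower at an unadjusted p under 0.05, against 12.1% of all genes. TIMM23 and TIMM23B are among these 4, and reads may be shared between them. The count of 4 fell with any 1 library left out, as did the count over all genes. Without shControl replicate 1 the log2 ratio of the summed level was -0.31. For comparison, 41 of 78 mitochondrial ribosome genes and 23 of 46 genes of respiratory complex I had a lower value, with medians of -0.026 and 0.0024. The grouping by complex was written with earlier results of these data known, and no test was made of the group as a whole.

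TIMM23 (ENSG00000265354.3), which gives the complex its name, was at 288 and 317 TPM under shControl and 218 and 209 TPM under shPHF8. The groups did not overlap. The means were 302 ± 20.5 and 214 ± 6.07 TPM (SD, n = 2), or 70.7% of the control level. Its difference on the log2 scale was -0.50 ± 0.079 (SE), and the 95% confidence interval ran from -0.71 to -0.28 (limma Benjamini-Hochberg adjusted p = 0.0906). TIMM23 was the member with the smallest p, and its unadjusted p stayed under 0.05 in each of the 13 alternatives, where the adjusted p ran from 0.0858 to 0.311.

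TIMM23B is a near copy of TIMM23, and reads of one may have been counted for the other, which makes both values uncertain. The first 514 bases of the 2 coding sequences aligned without a gap and differed at 10 positions, an identity of 98.1%, after which their ends diverged. Bases 229 to 288 of both, counted from the start codon, are printed because they show how little separates the pair. Capitals mark the differing bases, A246G and T273G with the TIMM23 base first.
TIMM23: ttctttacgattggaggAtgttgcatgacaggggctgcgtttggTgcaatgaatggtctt
TIMM23B: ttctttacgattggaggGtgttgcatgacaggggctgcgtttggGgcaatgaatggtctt

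TIMM23B (ENSG00000204152.6) was at 66.2 and 73.9 TPM under shControl and 53.9 and 55.8 TPM under shPHF8, also without overlap. Its log2 fold change was -0.34 ± 0.10 (SE, limma Benjamini-Hochberg adjusted p = 0.182). The 2 genes were also summed, an alternative added after their values were seen, and the sum was 354 and 390.5 TPM under shControl and 272 and 265 TPM under shPHF8. For this sum, which depends less on how reads were divided between the pair, the log2 fold change was -0.47 ± 0.076 (SE, limma Benjamini-Hochberg adjusted p = 0.0939). TIMM23 made up 81.3% and 81.1% of the pair under shControl and 80.2% and 79.0% under shPHF8, so its share was slightly lower in both knockdown libraries.

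TIMM17A and TIMM17B are alternative partners of TIMM23, and the lower level was seen in TIMM17A. TIMM17A (ENSG00000134375.10) was at 235 and 171 TPM under shControl and 141 and 121 TPM under shPHF8, without overlap. The log2 fold change of TIMM17A was -0.61 ± 0.19 (SE), with a 95% interval of -1.13 to -0.10 (limma Benjamini-Hochberg adjusted p = 0.186), the lowest of all 39 members. The replicates of TIMM17A lay far apart under shControl. Without shControl replicate 1 the log2 fold change was -0.39, in place of -0.61, and the unadjusted p was above 0.05 there and without either shPHF8 library. TIMM17B was at 112 and 102 TPM under shControl and 95.9 and 112 TPM under shPHF8, where the groups overlapped. Its 95% interval of -0.36 to 0.27 leaves room for a modest difference either way. TIMM17A made up 67.7% and 62.7% of the pair under shControl and 59.5% and 52.0% under shPHF8. The difference between the paralogues was not tested.

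TIMM21 (ENSG00000075336.11), which links the TIM23 complex to the TOM complex and to respiratory chain assembly, was at 36.7 and 35.5 TPM under shControl and 28.3 and 28.2 TPM under shPHF8. Replicates of this gene lay close together, and the groups were apart. Its log2 fold change was -0.34 ± 0.11 (SE, limma Benjamini-Hochberg adjusted p = 0.190). TIMM44, the anchor of the import motor, was at 106 and 103 TPM under shControl and 95.4 and 94.9 TPM under shPHF8, again without overlap but with a smaller log2 fold change of -0.13. TIMM50, the presequence receptor, was at 114 and 79.7 TPM under shControl and 98.4 and 74.4 TPM under shPHF8. Library 1 of each group was the higher for TIMM50, and the groups overlapped.

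**Figure D3:**
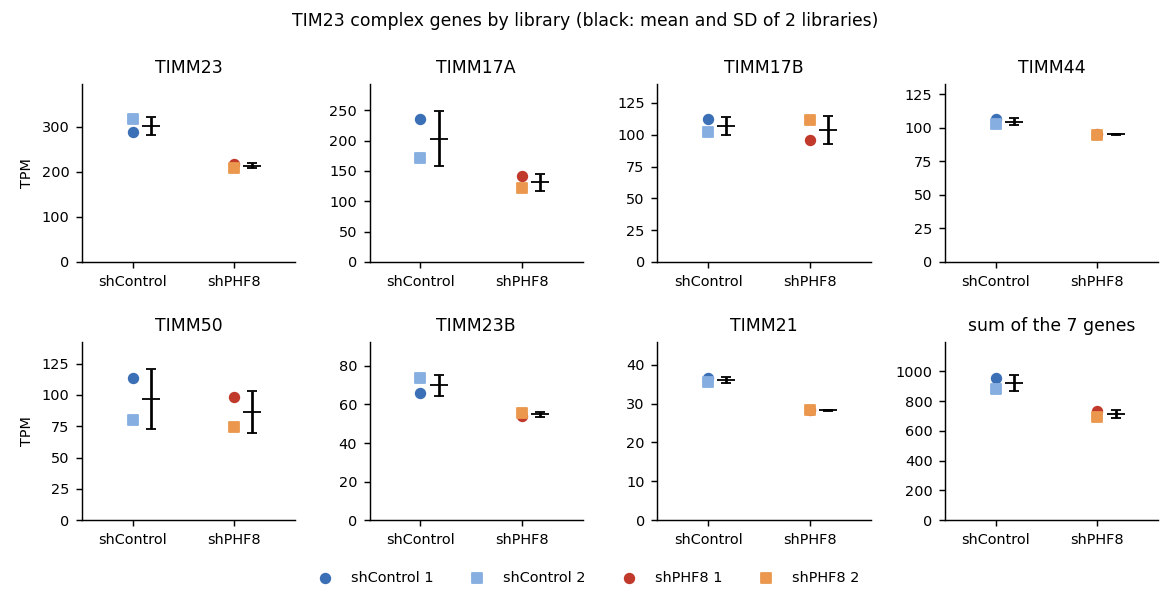
TPM of the 7 TIM23 complex genes and of their sum (vertical axes from 0), 1 panel each, with 1 point per library and the mean ± SD of the 2 libraries of a group in black. TIMM23, TIMM23B, TIMM17A, TIMM21, TIMM44 and the sum have both shPHF8 points below both shControl points, and TIMM17B and TIMM50 overlap.

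Besides TIMM44, parts of the import motor that pulls precursors through TIM23 are encoded by genes outside the name rule. HSPA9, the matrix Hsp70 of the motor, was at 794 and 635 TPM under shControl and 716 and 795 TPM under shPHF8, with overlap. Its partners DNAJC19, at 64.6 and 72.2 against 59.9 and 64.9 TPM, PAM16, at 87.3 and 103 against 105 and 72.1 TPM, and GRPEL1, at 28.3 and 32.3 against 31.8 and 28.6 TPM, overlapped as well. These 4 were chosen after their values were seen. ROMO1, a small TIM23 subunit, was instead below both controls under shPHF8, at 264 and 305 against 241 and 218 TPM, with a log2 fold change of -0.31 ± 0.11 (SE, limma Benjamini-Hochberg adjusted p = 0.214).

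In the TOM complex TOMM7 and TOMM22 had lower values, TOMM20, TOMM40 and TOMM70 higher ones, and 3 genes overlapped between groups. Of the 8 TOM genes, 3 thus had both shPHF8 libraries above both controls, against 26% of all genes, and 2 had both below, against 29.3%. TOMM7 (ENSG00000196683.10), a small subunit that tunes the assembly of the complex, was at 563 and 577 TPM under shControl and 429 and 478 TPM under shPHF8, without overlap. The means were 570.0 ± 9.59 and 454 ± 34.2 TPM (SD, n = 2). The log2 fold change was -0.33 ± 0.074 (SE), and the 95% confidence interval ran from -0.53 to -0.13 (limma Benjamini-Hochberg adjusted p = 0.126). TOMM7 is among the more abundant members, so on the TPM scale its difference was larger than that of any TIM23 gene.

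TOMM22, the central receptor, was at 121 and 136 TPM under shControl and 108 and 108 TPM under shPHF8, below both controls, with a log2 fold change of -0.24 ± 0.093 (SE, limma Benjamini-Hochberg adjusted p = 0.241). TOMM40, the beta-barrel pore, was at 129 and 137 TPM under shControl and 141 and 164 TPM under shPHF8, above both controls, with a log2 fold change of 0.19. The presequence receptor TOMM20 was at 587 and 557 TPM under shControl and 608 and 600.0 TPM under shPHF8, with a log2 fold change of 0.079. TOMM40 and TOMM20, and TOMM70, the receptor for carrier proteins, at 142 and 133 against 150.2 and 143 TPM, thus had higher values in both knockdown libraries without passing the test. The 95% interval of TOMM20 was -0.072 to 0.23, that of TOMM70 -0.13 to 0.31 and that of TOMM40 -0.096 to 0.48.

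TOMM6, TOMM5 and TOMM40L had wide intervals and groups that overlapped. TOMM6, a small TOM subunit, was at 151 and 49.9 TPM under shControl and 765 and 72.5 TPM under shPHF8. Library 1 of each group was the higher, and the first shPHF8 library was 10.4 times the second on the TPM + 1 scale. The log2 fold change of 1.43 ± 1.29 (SE) had a 95% interval of -2.11 to 4.97, and without shPHF8 replicate 1 it turned to -0.26. TOMM40L, a paralogue of TOMM40, was at 33.2 and 13.7 TPM under shControl and 9.12 and 35.6 TPM under shPHF8, and the order of the replicates was opposite in the 2 groups. TOMM5, another small subunit, was at 169 and 212 TPM under shControl and 280.4 and 168 TPM under shPHF8.

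The spread between replicates was as wide in 1 of the small TIM genes. TIMM8B was at 28.7 and 126 TPM under shControl and 25.6 and 131 TPM under shPHF8. Library 2 of each group was thus more than 4 times library 1, while the group means were 77.5 ± 69.03 and 78.4 ± 74.6 TPM (SD, n = 2). In all, 4 of the 39 members, namely TOMM6, TIMM8B, TOMM40L and IMMP2L, differed by more than 2-fold between the replicates of at least 1 group on the TPM + 1 scale, against 10% of all genes tested. Group means of these 4 genes say little about the knockdown.

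**Figure D4:**
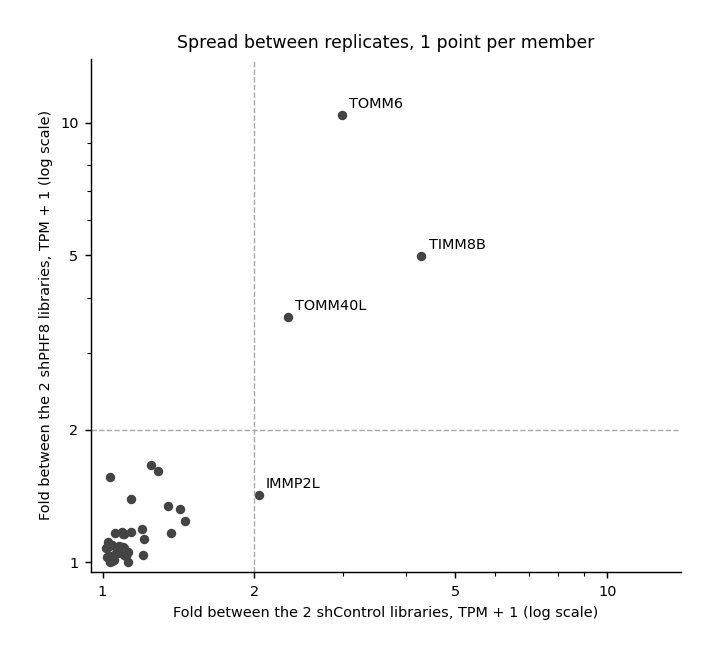
Fold between the 2 shControl libraries (horizontal) and between the 2 shPHF8 libraries (vertical) of each member, both on TPM + 1 and log axes, 1 point per gene, with dashed lines at 2-fold. TOMM6, TIMM8B and TOMM40L pass 2-fold in both groups and IMMP2L between the controls, and the other 35 members lie below 2 on both axes.

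The remaining small TIM chaperones had slightly lower or level values, and of the 6 small TIM genes 3 were below both controls, against 29.3% of all genes, and none was above, against 26%. TIMM9, the partner of TIMM10 in the hexamer that carries carrier proteins, was at 95.1 and 92.9 TPM under shControl and 77.9 and 84.6 TPM under shPHF8, a log2 fold change of -0.21 ± 0.089 (SE). TIMM10 was at 147 and 163 TPM under shControl and 144 and 167 TPM under shPHF8, with overlap and a 95% interval of -0.30 to 0.31. The other hexamer is built of TIMM8A and TIMM13, and each gene had both shPHF8 libraries below both controls. TIMM8A was at 54.2 and 65.6 against 53.7 and 47.4 TPM, and TIMM13 at 99.4 and 103 against 94.1 and 91.3 TPM. Their log2 fold changes were -0.24 ± 0.14 (SE) and -0.13 ± 0.079 (SE), and neither passed (limma Benjamini-Hochberg adjusted p = 0.411 and adjusted p = 0.427). TIMM10B, the small TIM held at the TIM22 complex, overlapped between groups, at 71.05 and 78.1 against 72.6 and 66.8 TPM.

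TIMM22, the pore that inserts carriers into the inner membrane, was among the least abundant members. It was at 14.7 and 16.9 TPM under shControl and 20.2 and 17.04 TPM under shPHF8, higher in both but only just in the second, with a log2 fold change of 0.22 ± 0.16 (SE, limma Benjamini-Hochberg adjusted p = 0.491). In the sorting and assembly machinery none of 3 genes separated the groups. SAMM50, its beta-barrel core, was at 88.3 and 89.5 TPM under shControl and 92.4 and 85.7 TPM under shPHF8, with a 95% interval of -0.23 to 0.24. The metaxins MTX1 and MTX2, which sit beside SAMM50, were at 23.8 and 24.6 against 33.4 and 20.9 TPM and at 152 and 104 against 96.2 and 119.8 TPM. Reads of MTX1 may be shared with its known pseudogene copy, so its level is uncertain.

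Of the matrix processing peptidase, PMPCA had a higher level and PMPCB overlapped between groups. PMPCA (ENSG00000165688.11), the subunit that recognises presequences, was at 82.5 and 90.3 TPM under shControl and 105 and 123 TPM under shPHF8, without overlap. The means were 86.4 ± 5.53 and 114 ± 12.8 TPM (SD, n = 2), or 132% of control. The log2 fold change was 0.39 ± 0.12 (SE), with a 95% interval of 0.070 to 0.72 (limma Benjamini-Hochberg adjusted p = 0.183), and PMPCA was the 1 member higher at an unadjusted p under 0.05. That standard was missed with shControl replicate 1, shControl replicate 2 or shPHF8 replicate 2 left out, where the log2 fold change was 0.33, 0.46 and 0.28. PMPCA missed it as well in the fit without the trend and with the highest transcript per gene. PMPCB, the catalytic subunit, was at 153 and 138 TPM under shControl and 141 and 152 TPM under shPHF8. The inner membrane peptidase genes IMMP1L and IMMP2L overlapped, at 49.7 and 64.4 against 31.2 and 50.98 TPM and at 22.8 and 47.5 against 29.1 and 20.2 TPM.

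CHCHD4, the oxidoreductase MIA40, was at 105 and 127 TPM under shControl and 125 and 130.4 TPM under shPHF8, with overlap. GFER, the sulfhydryl oxidase that reoxidises MIA40, and AIFM1, its binding partner in the intermembrane space, both lie outside the name rule and had lower values. AIFM1 was at 189 and 174 TPM under shControl and 135 and 137 TPM under shPHF8, a log2 fold change of -0.41 ± 0.079 (SE, limma Benjamini-Hochberg adjusted p = 0.106). GFER, chosen after its values were seen, was at 37.3 and 41.5 TPM under shControl and 28.9 and 33.2 TPM under shPHF8, a log2 fold change of -0.34 ± 0.13 (SE, limma Benjamini-Hochberg adjusted p = 0.250).

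Of the CHCHD proteins, CHCHD7 had lower values and the MICOS pair CHCHD3 and CHCHD6 higher ones. CHCHD7 (ENSG00000170791.17) was at 63.3 and 68.2 TPM under shControl and 49.7 and 54.1 TPM under shPHF8, a log2 fold change of -0.34 ± 0.10 (SE, limma Benjamini-Hochberg adjusted p = 0.188). CHCHD3 was at 300.1 and 279.7 TPM under shControl and 320.0 and 336 TPM under shPHF8, a log2 fold change of 0.18 ± 0.071 (SE, limma Benjamini-Hochberg adjusted p = 0.253). CHCHD6 was at 12.6 and 9.07 TPM under shControl and 14.5 and 19.9 TPM under shPHF8, a log2 fold change of 0.62 ± 0.25 (SE, limma Benjamini-Hochberg adjusted p = 0.258). The groups were apart in all 3 genes, yet none passed the adjusted test. CHCHD6 made up 4.03% and 3.14% of the MICOS pair under shControl and 4.35% and 5.59% under shPHF8. CHCHD2, the most abundant member, was at 1239 and 1296 TPM under shControl and 1234 and 1130.1 TPM under shPHF8, without overlap but by little in the first shPHF8 library. CHCHD1, CHCHD5 and CHCHD10 had log2 fold changes of 0.0074, -0.047 and 0.10, and their groups overlapped.

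The 2 genes named alike but with another role gave no difference that passed. TOMM34 was at 75.1 and 76.7 TPM under shControl and 74.8 and 72.8 TPM under shPHF8, just below both controls, and TIMMDC1 overlapped, at 42.8 and 35.6 against 35.96 and 42.9 TPM. Without both, the remaining 37 members held the same 1 higher and 6 lower at an unadjusted p under 0.05.

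The table lists single transcripts, and 28 members had 2 or more, up to 8. How reads common to several isoforms were assigned affects each of them, and single transcripts were less even between replicates: 38.7% of all 30266 transcripts tested differed by more than 2-fold between the replicates of at least 1 group, as did 32 of the 104 member transcripts tested. None of the 104 passed a limma fit over all transcripts with Benjamini-Hochberg adjustment, against 0.0033% of all transcripts. At an unadjusted p under 0.05, 3 were higher, against 4.91% of all transcripts, and 8 were lower, against 5.38%, in 10 genes. Both knockdown libraries lay above both controls in 21 member transcripts and below in 29, against 21% and 22.2% of all transcripts.

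In TIMM21 the lower level was that of 1 transcript. TIMM21-005, a short model of 821 bases with an incomplete coding end in GENCODE release 29, was at 16.1 and 14.8 TPM under shControl and 6.28 and 6.15 TPM under shPHF8, a log2 fold change of -1.19 ± 0.21 (SE, limma Benjamini-Hochberg adjusted p = 0.264). Its share of TIMM21 was 43.9% and 41.7% under shControl and 22.2% and 21.8% under shPHF8. TIMM21-001, whose coding sequence is whole, stood at 18.8 and 18.1 TPM under shControl and 17.98 and 18.1 TPM under shPHF8, and the minor TIMM21-002 was above both controls, at 1.80 and 2.59 against 4.05 and 3.94 TPM. Taken by its most abundant transcript alone, TIMM21 had a log2 fold change of -0.027 in place of -0.34.

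TIMM23B also depended on 1 transcript. TIMM23B-002 was at 19.7 and 32.2 TPM under shControl and 11.1 and 10.8 TPM under shPHF8, a log2 fold change of -1.13 ± 0.31 (SE, limma Benjamini-Hochberg adjusted p = 0.388). TIMM23B-001 overlapped, at 44.9 and 27.9 against 31.1 and 40.4 TPM. Taken by its most abundant transcript alone, TIMM23B had a log2 fold change of 0.00017. TIMM23 and TIMM17A each have 1 listed transcript, so no such choice arises for them.

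TIMM9-003 was at 10.7 and 11.6 TPM under shControl and 5.38 and 2.99 TPM under shPHF8. The most abundant transcript of the gene, TIMM9-001, was also below both controls, at 46.1 and 41.2 against 32.6 and 38.3 TPM, with a log2 fold change of -0.30, and TIMM9-009 overlapped, at 37.4 and 39.5 against 38.8 and 41.99 TPM. TOMM5-004 was at 7.07 and 9.18 TPM under shControl and 1.31 and 0.878 TPM under shPHF8 (log2 fold change -2.12 ± 0.33 (SE), limma Benjamini-Hochberg adjusted p = 0.242), and made up at most 4.34% of TOMM5. The main transcript TOMM7-001, at 527 and 546 against 422 and 451 TPM, was below both controls like TOMM7 as a whole. IMMP1L had 1 transcript in each direction: IMMP1L-006 was at 14.2 and 21.1 against 8.84 and 5.07 TPM, and IMMP1L-012 at 1.80 and 1.49 against 4.21 and 5.72 TPM. CHCHD10-002 and TIMM13-002 were listed at 0 in both controls and at 5.19 and 4.42 TPM and 4.04 and 1.55 TPM under shPHF8, and no fold is given for them.

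**Figure D5:**
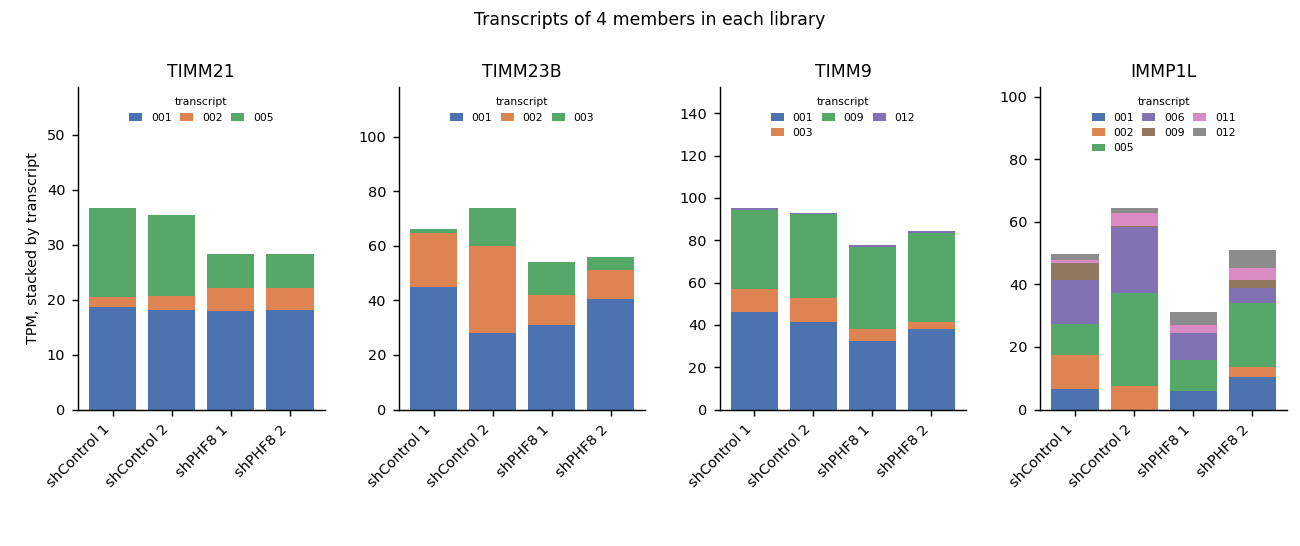
TPM of TIMM21, TIMM23B, TIMM9 and IMMP1L in each library, stacked by transcript (bar height from 0 is the level of the gene, colours are transcripts numbered as in the table). In TIMM21 the green segment, TIMM21-005, shrinks from 16.1 and 14.8 TPM to 6.28 and 6.15 TPM while the blue TIMM21-001 stays between 17.98 and 18.75 TPM.

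Other genes of the import pathway, taken from lists that the name rule does not cover, also went both ways. Of 26 import partners 1 was higher and 2 were lower at an unadjusted p under 0.05, against 9.9% and 12.1% of all genes, with a median log2 fold change of -0.081. The higher one was OXA1L, the inner membrane insertase that receives mitochondrially made proteins, at 34.1 and 37.4 TPM under shControl and 84.96 and 89.6 TPM under shPHF8. Its log2 fold change was 1.27 ± 0.10 (SE, limma Benjamini-Hochberg adjusted p = 0.0572), nearer to the threshold than any of the 39 members. The lower ones were AIFM1 and ROMO1. PITRM1, the presequence protease, had the next smallest p among partners with a higher value, at 72.8 and 84.8 against 94.1 and 87.2 TPM.

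Another list held 13 proteins known for twin cysteine pairs, many of them known clients of MIA40, and their exact spacing was not checked here. Of these, 1 was higher and 1 lower at that standard, again against 9.9% and 12.1% of all genes. CMC2, a factor of cytochrome oxidase assembly, was at 22.7 and 20.1 TPM under shControl and 37.8 and 48.4 TPM under shPHF8, and COA6, another such factor, at 266 and 289 against 219.7 and 245 TPM. The next in each direction were NDUFB7 and CMC1, with log2 fold changes of 0.076 and -0.29. Of 10 cytosolic chaperones, 1 was higher and 1 lower, against the same shares. UBQLN1, which binds precursors in the cytosol, was at 43.2 and 33.1 TPM under shControl and 69.1 and 68.9 TPM under shPHF8, and the Hsp40 DNAJB1 at 94.2 and 103 against 78.04 and 67.3 TPM. DNAJA2 and STIP1 followed with log2 fold changes of 0.18 and -0.13. None of these passed with adjustment, and the median log2 fold changes of the lists were -0.035 and -0.057.

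The mitochondrially encoded genes, whose products join imported subunits, summed to 133550.5 and 135084 TPM under shControl and 133379 and 135214 TPM under shPHF8. The groups overlapped in this sum, although 3 of the 13 genes were higher and 2 lower at an unadjusted p under 0.05, against 9.9% and 12.1% of all genes. The smallest p values belonged to MT-CYB and MT-CO3, with log2 fold changes of 0.13 and 0.12, and to MT-ND6 and MT-ATP8, with -0.39 and -0.13. Mitochondrial ribosome genes, of which 5 of 78 were higher and 6 lower at that standard, against the same shares, summed to 8999 and 9575 against 9217 and 9056 TPM. Their smallest p values belonged to MRPL36 and MRPL49, with log2 fold changes of 0.98 and 0.61, and to MRPL48 and MRPS26, with -0.49 and -0.40. Complex I genes, of which 4 of 46 were higher and 5 lower, against the same shares, summed to 8038 and 8379.9 against 8203 and 8040.2 TPM. Both sums overlapped between groups.

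Promoters were read from RefSeq windows on GRCh38.p14, from 250 bases before to 50 after a gene's start, which were found for 36 of the 39 members and for 8681 gene names of the table. CHCHD7, TIMM8B and TOMM5 had no entry. The core of the ETS family motif, CCGGAAG on either strand, occurred in 15 of 36 members, or 41.7%, and in 24.3% of all these genes. The NRF1 motif, a palindrome that reads the same on both strands, occurred in CHCHD4 alone, or 2.78% of members and 2.79% of all genes. The YY1 motif AANATGGC, on either strand, occurred in 5 members, or 13.9%, and in 13.6% of all genes. Motifs were searched 1 at a time and matches of different motifs may overlap. The searched strings differ in length and strictness, so counts cannot be compared between motifs, and sites that vary from these letters were not counted. Such matches are letters in a window, not shown sites of binding.

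The matching windows of TIMM23 and TIMM23B are printed because the copies resemble each other here as well. Whether a match goes with the RNA level of a gene was not tested. TIMM23 is at chr10:45972421-45972467 and TIMM23B at chr10:49941991-49942037, both on the plus strand of GRCh38.p14, upstream of the start. Capitals mark 1 match to the ETS core on the minus strand. TIMM23B holds a further match in the bases just before it, and TIMM23 holds a further match after the start, outside the printed bases.
TIMM23: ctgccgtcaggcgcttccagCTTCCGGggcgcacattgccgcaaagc
TIMM23B: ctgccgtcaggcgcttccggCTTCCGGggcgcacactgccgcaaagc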

How the data were processed

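The authors deposited a table of TPM per transcript, with 1 column for each of the 4 libraries. The submitters' processing notes name HISAT2 2.0.4, StringTie 1.2.3 and hg19, without their roles, and annotation and strandedness were not analysed here. A further 4 deposited columns of signal in no stated unit were a constant multiple of TPM, which were 3.16 to 3.19 times as large, and were not used. Columns were matched to libraries by title. TPM were summed per gene name. Genes or transcripts averaging 1 TPM or more were tested as log2(TPM + 1) with limma 3.58.1 (trend, two-sided, R 4.3.3) and Benjamini-Hochberg adjustment at 0.05 over the whole table. Residual degrees of freedom were 2. An exact permutation test of 2 against 2 cannot give p below 0.333 and was not used. Fold changes on this scale are too small where TPM are low. The members and lists were chosen with earlier results of these data known.

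The rule for members given by library took those with the 3 smallest p values or the highest TPM of a role group, or with an unadjusted p under 0.05. Most other members are given by library too, outside that rule and after their values were seen. Of other lists, the 2 smallest p values in each direction were named, except for some that are not reported here, and beyond them HSPA9, DNAJC19, PAM16, GRPEL1 and GFER, chosen after their values were seen. The fitting script was tested on simulated data. Coding sequences came from GENCODE release 29 (GRCh38), which held 109 of 110 member transcripts, aligned with Biopython 1.88, and promoters from RefSeq. Python 3.11.15, pandas 2.3.3 and matplotlib 3.10.9 were used. The 13 alternatives changed scaling, filter, model, transcripts or libraries.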

Additional observations from a re-analysis of the deposited data

How the results depend on the processing

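Under the 13 alternatives, and with TIMM23 and TIMM23B summed, no member passed with adjustment (0 of 508 values), and 22 of 39 kept their direction throughout. The other 17 turned at least once, in 28 values. With 1 library left out, log2 fold changes that turned ran from -0.024 to 0.039 for CHCHD1, -0.29 to 0.19 for CHCHD5, -0.94 to 0.087 for IMMP2L, -0.20 to 0.45 for MTX1, -0.49 to 0.045 for MTX2, -0.058 to 0.086 for PMPCB, -0.051 to 0.056 for SAMM50 and -0.10 to 0.11 for TIMM10. They ran from -0.15 to 0.062 for TIMM17B, -0.41 to 0.10 for TIMM50, -1.21 to 1.10 for TIMM8B, -0.12 to 0.14 for TIMMDC1, -1.15 to 0.71 for TOMM40L, -0.17 to 0.56 for TOMM5 and -0.26 to 3.12 for TOMM6. With quantile normalization CHCHD2 was 0.015 and SAMM50 -0.039, and with the highest transcript per gene TIMM23B was 0.00017 and TIMM50 0.099. With 1 library left out, 2 to 5 members were lower and 1 to 2 higher at an unadjusted p under 0.05, 1 to 2 TIM23 genes were lower, 5 to 7 of them had a lower value, and 5 to 10 member transcripts were lower and 3 to 6 higher. The median log2 fold change of the members then ran from -0.14 to -0.0077, and the log2 ratio of their sum from -0.088 to 0.075. With the highest transcript per gene 3 members were lower, 0 higher and 2 TIM23 genes lower, with a median of -0.017. Higher members numbered 2 with median-of-ratios scaling and 0 without the trend, and higher transcripts 0 with a minimum mean of 5 TPM. A fit with 1 library left out takes the lone sample to vary as the remaining groups do. PHF8 did not pass with adjustment under any alternative. With the replicate block, 1 member was higher and 6 lower, with IMMP1L in place of TIMM21, and 1 member transcript was higher. The labels do not say that a number marks a shared culture, and the deviations of same-numbered libraries correlated at -0.029 over 10972 genes. The cause of these shifts was not tested, and without read counts the limit set by depth cannot be given.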
